A study of Homo sapiens with 6 samples.

Results

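PK-1 cells treated with RARγi-2 were compared directly with PK-1 cells treated with RARγi-1, over all entries that lay above the lowest deposited level in at least 1 of the 2 libraries, 14020, out of 53826 entries in the annotation (26.0%). PK-1 is an established human cell line of pancreatic ductal adenocarcinoma (PDAC), grown in culture with no stromal or immune cells. RARγi-1 (LY2955303) and RARγi-2 (MM11253) are antagonists of retinoic acid receptor γ (RARγ) which the study describes as structurally different from each other. RNA was taken after 24 h, and 1 library was sequenced for every condition, namely the control, RARγi-1 and RARγi-2, both for PK-1 and for another PDAC line, Panc-1, making 6 libraries. Neither the doses of the sequenced cultures nor the control's vehicle is given in the sources used here. In other assays of the study RARγi-2 was used at a higher molar concentration than RARγi-1, so that the inhibitor and its dose cannot be told apart in any value below. The sample titles and the treatment labels conflict, since the label of both libraries titled RARγi-2 reads RARγi-1, and the titles were followed. With 1 library on each side, replicate error could not be measured for any difference, and none was tested. The ductal epithelial markers were present, with 8 of 8 above the lowest level and KRT19 at 3446 and 2646 TPM with RARγi-1 and RARγi-2. Of the markers of other cell types, COL1A1 alone was detected of 8 fibroblast genes, CD68 and LYZ of 6 immune genes, PRSS1 of 5 acinar genes and none of 4 endothelial genes. PTPRC, PECAM1, CD3E and COL1A2 were at the lowest level in both treated libraries.

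Retinoic acid, made from vitamin A, is the ligand of the retinoic acid receptors RARα, RARβ and RARγ, nuclear receptors that bind DNA together with retinoid X receptors. With ligand they recruit coactivators to target genes, and without ligand, or with an antagonist, they can hold corepressors there. Retinoic acid signaling is known for its role in epithelial differentiation, and RARγ is the main subtype of stratified epithelia such as skin and esophagus. The question addressed here is how far antagonists of the same receptor left different transcriptomes in the same cells.

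Expression is given as TPM, the share of a gene among all transcripts, which corrects for transcript length. The deposited log2 values end at 1 TPM, because everything lower had been raised to that level, called the floor here. The difference of an entry is log2 of (TPM + 1) with RARγi-2 minus the same with RARγi-1, so that 1 is a 2-fold higher and -1 a 2-fold lower level with RARγi-2, and the pseudocount of 1 makes the differences of low entries too small. A gene at the floor in 1 library has a difference that is at least as large as the one given. Because the values are shares of a bulk RNA sample, fewer cells expressing a gene and less of its RNA per cell cannot be told apart.

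The PK-1 transcriptomes with the 2 inhibitors were within 2-fold of each other at 94.2% of entries. RARγi-2 was more than 2-fold higher at 191 entries (1.36%) and more than 2-fold lower at 628 (4.48%), which makes 819 either way (5.84%). Of the 10954 entries that reached 5 TPM in at least 1 of the libraries, 167 were higher (1.52%) and 552 lower (5.04%). The entries lower with RARγi-2 included interferon-induced genes and nearly all of a list of mitosis genes, whereas those higher with RARγi-2 included the chaperone gene HSPA6, which had the highest difference of all, the metallothionein gene MT1F, the transcription factor gene KLF2 and the secreted protein gene LCN2. The median difference over all entries was -0.14, and the robust standard deviation, from the median absolute deviation, was 0.40. After rescaling the libraries by their median ratio of -0.14 on the log2 scale, 298 entries were higher and 447 lower, so that the share of higher entries among those past 2-fold went from 23.3% to 40.0%. The size of the surplus of lower entries thus depended on the scaling, although lower entries remained the more numerous. The values of gene groups below are to be read against the median of -0.14. Their counts past 2-fold are to be read against 1.36% higher and 4.48% lower of all entries. Counts by sign are to be read against 35.9% of all entries above 0 and 64.1% below 0. The counts of gene groups are without rescaling, under which members close to 2-fold can cross it. Among 274 entries with a mean of at least 500 TPM, 5.11% were higher and 2.55% lower with RARγi-2, and the median was 0.10, whereas among the 5357 entries between 10 and 50 TPM 1.03% were higher and 5.15% lower. The 532 entries above the floor with RARγi-1 alone and the 368 with RARγi-2 alone were low, with medians of 1.40 and 1.31 TPM.

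**Figure D1:**
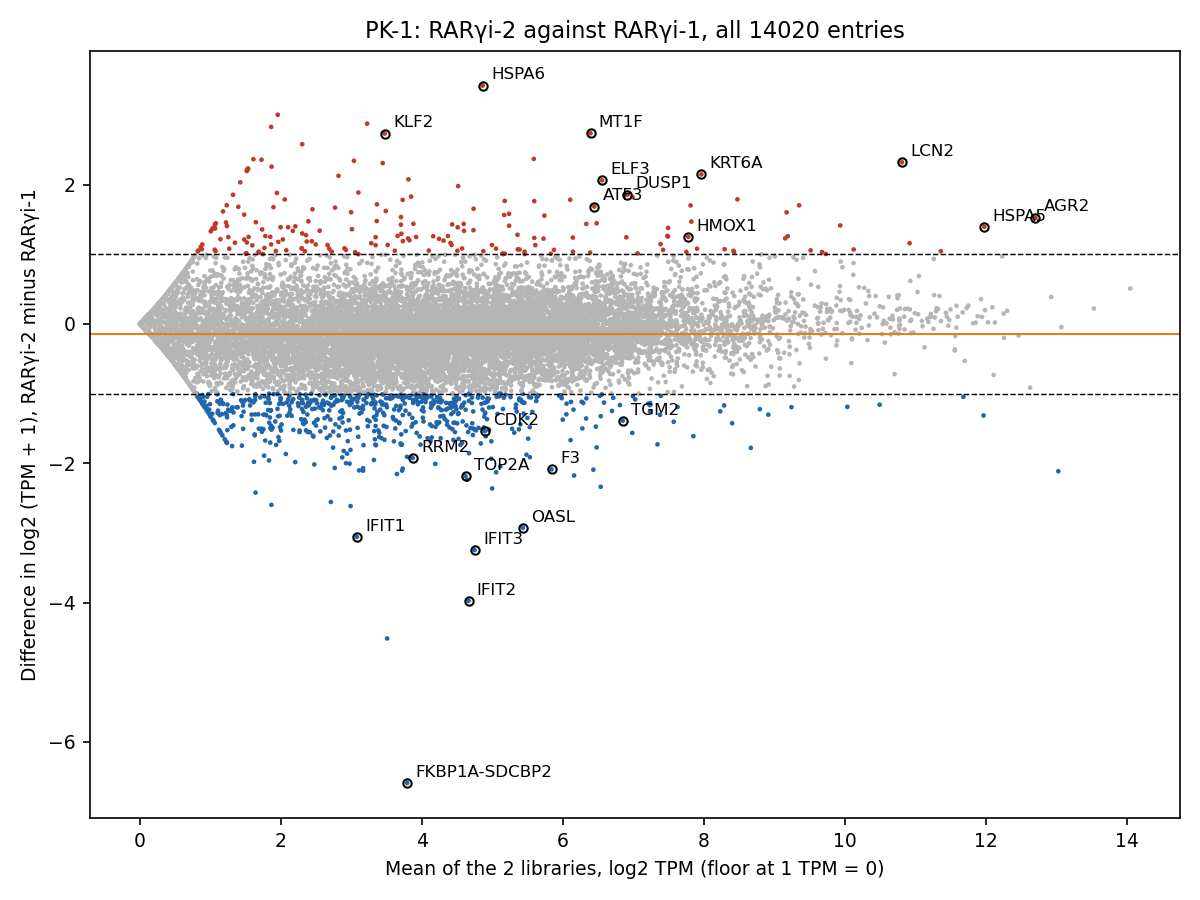
Each point is 1 of the 14020 entries in PK-1, with its mean log2 TPM over the RARγi-1 and RARγi-2 libraries on the horizontal axis and the difference in log2 (TPM + 1), RARγi-2 minus RARγi-1, on the vertical axis. Red and blue points lie beyond 2-fold (dashed lines), the orange line is the median of -0.14, and IFIT2, IFIT3, IFIT1 and OASL lie at -3.98 to -2.93, below the other labelled genes except the read-through entry FKBP1A-SDCBP2 at -6.59, while HSPA6 lies highest at 3.42.

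All 54 measured members of the mitosis list were lower with RARγi-2 than with RARγi-1. Of these, 52 were more than 2-fold lower, and the median difference was -1.51. The other members were SMC2 (-0.64), a condensin subunit, and SPC25 (-0.67), a kinetochore subunit, which were lower by less. TOP2A, the topoisomerase that untangles sister chromatids, was at 243 TPM in the control, 54.2 TPM under RARγi-1 and 11.1 TPM under RARγi-2, a difference of -2.18. BUB1B, a kinase of the spindle checkpoint, was at 58.6, 20.4 and 3.96 TPM in the same order, and LMNB1, which encodes lamin B1 of the nuclear envelope, was at 169.5, 28.8 and 6.08 TPM. For each of these genes the control was the highest of the libraries and RARγi-2 the lowest. The differences of BUB1B and LMNB1 were -2.11 and -2.08.

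The 250 bases upstream of the TOP2A start site (chr17:40417897-40418146, GRCh38.p14, minus strand, from RefSeq) are shown because TOP2A had the lowest value of the mitosis list. The capitals mark CCAAT boxes and the letters TTTGAA, known as a cell cycle homology region, on either strand.
TOP2A: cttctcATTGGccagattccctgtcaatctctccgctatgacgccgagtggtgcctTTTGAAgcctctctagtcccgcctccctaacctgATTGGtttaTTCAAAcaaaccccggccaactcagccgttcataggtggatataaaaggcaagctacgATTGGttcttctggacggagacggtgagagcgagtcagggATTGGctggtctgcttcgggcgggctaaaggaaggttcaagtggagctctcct
The 4 CCAAT boxes end 240, 156, 89 and 49 bases before the start, and the 2 TTTGAA matches end 189 and 146 bases before it. Numbers and shares of promoters with a motif, here and below, refer to a window of 300 bases, 250 upstream and 50 downstream of the start. Of the promoters of the mitosis list, 34 of 48 held TTTGAA, against 9.65% of the 10837 promoters matched to entries. The shares were 21.8% of the 449 promoters of entries lower with RARγi-2 and 16.2% of the 130 promoters of higher entries. A match describes the letters in this window and is not evidence that a factor was bound.

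DNA replication genes were lower with RARγi-2 as well. Of 46 measured members, 18 were more than 2-fold lower and none higher, with a median of -0.92. RRM2, a subunit of ribonucleotide reductase, was at 227 TPM in the control, 29.9 TPM in the RARγi-1 library and 7.14 TPM in the RARγi-2 library (difference -1.92). PRIM1, the catalytic subunit of primase, went from 55.0 TPM in the control to 16.0 and 3.68 TPM (-1.86), and MCM10, a factor of replication initiation, from 43.9 TPM to 8.23 and 1.77 TPM (-1.74). Not all members followed. CDC6, which loads the MCM helicase at origins, was nearly level at 131.5 and 128 TPM (-0.03), and RFC1, the large subunit of the clamp loader, was higher with RARγi-2, at 67.6 against 37.9 TPM (0.82).

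Among 23 cyclins, kinases and E2F factors of the G1-S transition, 3 were more than 2-fold lower and none higher, with a median of -0.62. CCNA2, which encodes cyclin A2, was at 72.2 TPM in the control, 20.1 TPM after RARγi-1 and 4.01 TPM after RARγi-2 (-2.07). CDK2, the kinase that cyclins A and E activate, was at 160.1, 51.6 and 17.1 TPM (-1.54). CCND1, which encodes cyclin D1, was at 135, 103 and 46.7 TPM (-1.12), and after rescaling by the median ratio it was within 2-fold. CDK4 and CDK6, the partners of D-type cyclins, had differences of -0.47 and -0.79. MYC was nearly level (-0.06), and CCNE2, which encodes cyclin E2, had a difference of 0.16. Of 6 CDK inhibitor genes only CDKN3, whose product is a phosphatase of CDK2, was past 2-fold (-1.20). CDKN1A, which encodes p21, was about as high with both inhibitors, at 350 TPM under RARγi-1 and 468 TPM under RARγi-2 against 36.1 TPM in the control, and CDKN1B, which encodes p27, was at 66.8 and 80.8 TPM against 36.2 TPM.

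Of 39 genes of homologous recombination and Fanconi anemia repair, 7 were more than 2-fold lower with RARγi-2 and none higher, and the median was -0.66. The lowest were BLM, a helicase, at 6.57 and 1.67 TPM (-1.50), CHEK2, a checkpoint kinase, at 21.7 and 7.01 TPM (-1.50), and RAD54L, a recombination motor protein, at 7.51 and 2.41 TPM (-1.32). The nuclease subunit MUS81 and the repair sensor NBN were nearly level, at -0.09 and -0.16. Genes of ribosome biogenesis and RNA polymerase I were lower too, with 9 of 37 past 2-fold and a median of -0.69. Of these 9, NOP2, LYAR, WDR43, TCOF1, WDR74 and BYSL were close to the 2-fold line, at -1.03 to -1.12. RRS1, an assembly factor of the large subunit, was at 144 TPM in the control, 66.4 TPM in the RARγi-1 library and 22.7 TPM in the RARγi-2 library (-1.51). WDR12, of the same assembly process, and POLR1E, a subunit of RNA polymerase I, both had differences of -1.16. The cytosolic ribosomal proteins themselves had no member past 2-fold, a median of 0.12 and a range of single genes from RPL7A at -0.17 to RPS12 at 0.40.

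Apart from read-through entries, the lowest differences belonged to interferon-induced genes. Of 32 measured genes of the interferon response and MHC class I, 9 were more than 2-fold lower with RARγi-2 and 1 higher, with a median of -0.59. IFIT2, an interferon-induced protein with tetratricopeptide repeats, was at 26.2 TPM in the control, 108 TPM after RARγi-1 and 5.93 TPM after RARγi-2, which is 18.2 times as high with RARγi-1 (difference -3.98). IFIT3 was at 28.8, 87.0 and 8.28 TPM (-3.25) and IFIT1 at 9.46, 28.3 and 2.52 TPM (-3.06). These related genes lie in 1 cluster on chromosome 10, and in each of them RARγi-1 was above the control and RARγi-2 below it. OASL, an antiviral protein related to oligoadenylate synthetases, was at 12.9 TPM in the control, 122 TPM under RARγi-1 and 15.2 TPM under RARγi-2 (-2.93), with RARγi-2 near the control. HERC5, the ligase that attaches ISG15 to other proteins, is not in the list and was at 2.27, 11.8 and 1.12 TPM (-2.60).

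In all, 26 of the 32 members had a difference below 0, against 64.1% of all entries, and 23 lay below the median of all entries. ISG15, IFI44, OAS2, GBP1 and the RNA sensor gene DDX58 were the other members past 2-fold lower, while STAT2, a signal transducer of the interferon receptor, was at 24.5 and 23.6 TPM (-0.06). ISG20, an exonuclease, was at 4.95 TPM in the control, 80.0 TPM in the RARγi-1 library and 114 TPM in the RARγi-2 library (0.51). IRF7, a transcription factor of the interferon response, was at 5.20, 21.1 and 41.1 TPM (0.93), and past 2-fold higher after rescaling. GBP2, a guanylate-binding protein, was the member past 2-fold higher, at 1.76 TPM after RARγi-1 and 7.84 TPM after RARγi-2 (1.68). The related GBP1 was at 7.20 TPM in the control, 4.83 TPM after RARγi-1 and the floor after RARγi-2.

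The 250 bases upstream of IFIT3 (chr10:89327747-89327996, GRCh38.p14, plus strand) are shown as the promoter of a gene of this cluster. The capitals mark GAAA, any 2 bases and GAAA on either strand, the repeat of interferon response elements, and this motif was chosen after the values had been seen.
IFIT3: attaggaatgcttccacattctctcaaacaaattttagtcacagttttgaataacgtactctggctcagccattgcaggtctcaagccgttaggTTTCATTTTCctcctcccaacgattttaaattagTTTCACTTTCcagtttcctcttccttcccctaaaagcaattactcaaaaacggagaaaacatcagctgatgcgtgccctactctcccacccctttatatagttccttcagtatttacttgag
Both matches lie on the strand opposite to the gene and end 147 and 113 bases before the start. Of the promoters of the interferon list, 14 of 23 held the motif, against 2.68% of all 10837, 5.12% of those of lower entries and 1.54% of those of higher entries.

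Genes of the endoplasmic reticulum (ER) had higher levels with RARγi-2, mostly by less than 2-fold. Of 47 ER chaperones, folding enzymes and ER-associated degradation factors, 4 were more than 2-fold higher and none lower, and the median was 0.45. Of the 47, 44 had a difference above 0, against 35.9% of all entries. HSPA5, the chaperone BiP, was at 532 TPM in the control, 2487 TPM under RARγi-1 and 6542 TPM under RARγi-2 (difference 1.39). HERPUD1, a factor of ER-associated degradation, was at 64.4, 331 and 1007 TPM (1.60), and DNAJB9, a BiP cochaperone, at 10.6, 77.3 and 185 TPM (1.24). In these genes RARγi-2 was the highest library and the control the lowest. CRELD2, a secreted ER stress protein, was the fourth past 2-fold, at 112 and 249 TPM (1.15). The lowest members were CREB3L2, a membrane-bound transcription factor (-0.29), and EDEM1, a degradation factor (-0.22). Genes of ER export and the Golgi coats had no member past 2-fold but a median of 0.42 and 28.0 of 31 differences above 0, with KDELR3, a retrieval receptor for ER proteins, at 60.6 and 114 TPM (0.91) and the small GTPase ARF4 at 329 and 595 TPM (0.85).

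The promoters of HSPA5 (chr9:125241344-125241593, GRCh38.p14, minus strand) and HSPA6 (chr1:161524290-161524539, plus strand) are shown for the leading ER chaperone and the leading cytosolic chaperone. The capitals mark the ER stress element in HSPA5, CCAAT followed by any 9 bases and CCACG, which contains a CCAAT box, and GAANNTTC, the core of the heat shock element, in HSPA6.
HSPA5: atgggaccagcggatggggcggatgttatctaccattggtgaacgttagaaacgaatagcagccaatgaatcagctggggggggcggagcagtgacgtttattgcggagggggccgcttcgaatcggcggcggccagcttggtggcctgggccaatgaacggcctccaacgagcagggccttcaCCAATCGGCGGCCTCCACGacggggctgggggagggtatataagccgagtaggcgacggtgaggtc
HSPA6: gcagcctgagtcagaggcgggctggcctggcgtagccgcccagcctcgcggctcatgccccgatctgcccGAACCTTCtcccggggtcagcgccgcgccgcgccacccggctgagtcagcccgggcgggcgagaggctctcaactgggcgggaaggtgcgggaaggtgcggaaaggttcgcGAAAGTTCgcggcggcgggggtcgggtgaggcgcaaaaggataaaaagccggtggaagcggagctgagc
The ER stress element of HSPA5 spans 66 to 48 bases before the start, and the matches of HSPA6 end 173 and 62 bases before it. In the window of 300 bases 14 of 10837 promoters held the full ER stress element (0.129%), among them 7 of the 43 promoters of the ER list. It was in 2 promoters of entries higher with RARγi-2, HSPA5 and CRELD2, and in none of lower entries. GAANNTTC was in 11 of 25 promoters of the heat shock list, in 9.23% of promoters of higher entries, in 4.68% of those of lower entries and in 4.69% of all.

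Targets of ATF4 and CHOP, transcription factors of the integrated stress response, were closer to level, with 4 of 37 more than 2-fold higher, none lower and a median of 0.16. ATF3, a stress-induced transcription factor, was at 8.04 TPM in the control, 48.3 TPM in the RARγi-1 library and 157 TPM in the RARγi-2 library (difference 1.68). DDIT3, which encodes CHOP itself, was at 48.9, 377 and 904 TPM (1.26). PPP1R15A, which directs the dephosphorylation of eIF2α, was at 507 and 1055 TPM (1.06). Against these, the amino acid transporter gene SLC7A5 was lower with RARγi-2 (-0.50), and PSPH, of serine synthesis, had a difference of -0.55. The aminoacyl-tRNA synthetases had none of 20 past 2-fold and a median of -0.03. The members past 2-fold were ATF3, DDIT3, PPP1R15A and the glycine transporter gene SLC6A9.

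Of 37 NRF2 targets, genes of the oxidative stress response, 6 were more than 2-fold higher with RARγi-2 and none lower, with a median of 0.25. HMOX1, heme oxygenase 1, was at 17.8 TPM in the control, 142 TPM after RARγi-1 and 339 TPM after RARγi-2 (1.25). AKR1C1 and AKR1C2, aldo-keto reductases, had a difference of 1.07 each, but they are near-identical copies among which reads could have been split. TKT, an enzyme of the pentose phosphate pathway, had a difference of -0.60. NQO1, a quinone reductase, was nearly level at 762 and 810.4 TPM (0.09). Lysosome and autophagy genes had 4 of 41 more than 2-fold higher, none lower and a median of 0.02. ATP6V0D2, a subunit of the vacuolar proton pump, was at the floor in the control, 20.8 TPM under RARγi-1 and 111 TPM under RARγi-2 (2.37). MAP1LC3B, an autophagosome protein, was at 371 and 872 TPM (1.23) and WIPI1, which acts in autophagosome formation, at 118 and 248 TPM (1.06).

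HSPA6, a stress-inducible HSP70, had the highest difference of all entries. It was at 2.60 TPM in the control, 8.44 TPM in the RARγi-1 library and 100.1 TPM in the RARγi-2 library, a difference of 3.42. Of 28 heat shock chaperones HSPA6 alone was past 2-fold in PK-1. The median was 0.05, with 17 differences above 0 and 11 below. HSPA1A and HSPA1B, HSP70 genes that are near-identical copies, had differences of 0.81 and 0.73. HSPE1, the mitochondrial chaperonin partner HSP10, was lower, at 315 and 204 TPM (-0.62). MT1F, a metallothionein that binds zinc and copper, was at 9.85 TPM in the control, 32.1 TPM after RARγi-1 and 219.7 TPM after RARγi-2 (2.74). MT1X and MT2A of the same family had differences of 1.03 and 0.97, and the zinc exporter SLC30A1 one of 0.54. Of 12 entries on the list of metallothioneins and zinc transport, 6 were at the floor in both libraries. The other 6 had a median of 0.75. Their member past 2-fold lower was SLC39A10 (-1.29), a zinc importer that was under 5 TPM in both libraries.

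Of 23 AP-1 and immediate early genes, 3 were more than 2-fold higher and 1 lower, and the median was 0.13. KLF2, a Krüppel-like transcription factor, was at 2.35 TPM in the control, 3.90 TPM under RARγi-1 and 31.6 TPM under RARγi-2 (2.73). JUN, an AP-1 subunit, was at 65.8, 136 and 378 TPM (1.47). The related JUNB went the other way, at 235 and 132 TPM (-0.83), as did EGR1, at 61.5 and 30.2 TPM, the member past 2-fold lower, which was within 2-fold after rescaling. DUSP1, a phosphatase of MAP kinases, was at 21.9, 63.1 and 231 TPM (1.86), whereas DUSP6 and DUSP7, which act on ERK, had differences of -0.70 and -0.91. The 17 MAPK output genes had a median of -0.53.

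**Figure D2:**
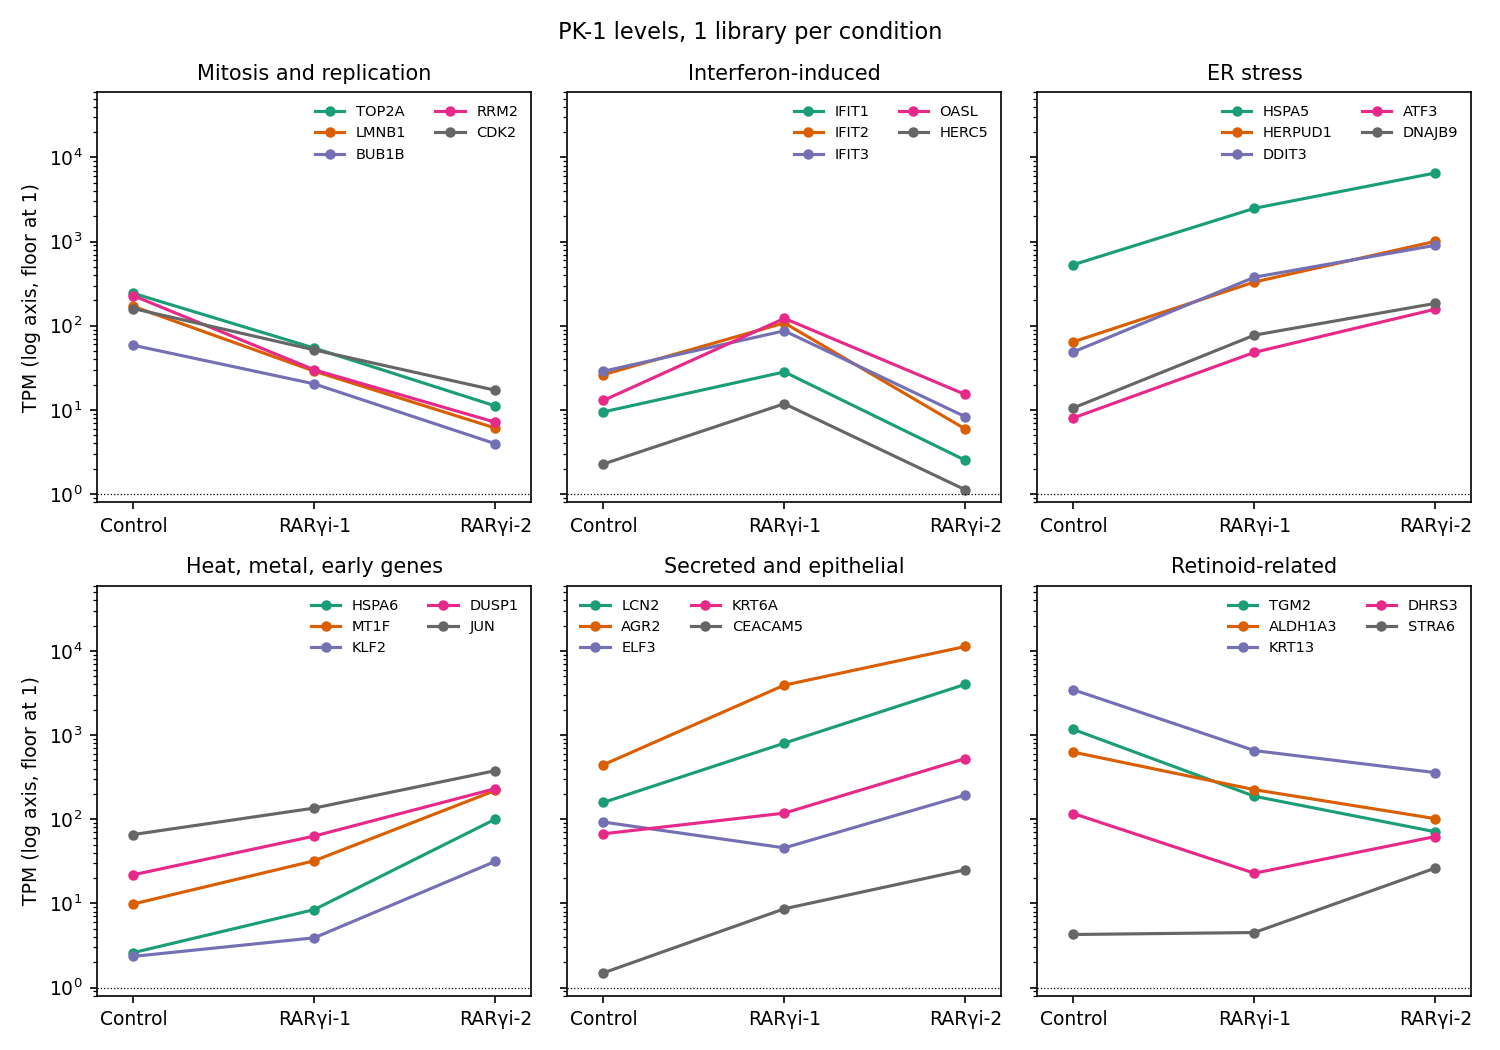
Levels of 30 genes in the PK-1 libraries (control, RARγi-1, RARγi-2), in TPM on a log axis, with 1 library per point, the floor at 1 TPM as a dotted line and lines joining the points of a gene. Mitosis and replication genes step down and ER stress genes step up from control to RARγi-1 to RARγi-2, whereas the interferon-induced genes peak in the RARγi-1 library, where IFIT2 is at 108 TPM.

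Of 19 genes of mucins, CEACAMs and the pancreatic lineage, 6 were more than 2-fold higher with RARγi-2 and none lower, 13 had a difference above 0, and the median was 0.50. ELF3, an epithelial ETS transcription factor, was at 92.6 TPM in the control, 45.7 TPM in the RARγi-1 library and 194 TPM in the RARγi-2 library (2.06), so that the inhibitors lay on opposite sides of the control. AGR2, a disulfide isomerase needed for mucin secretion, was at 445, 3927 and 11302 TPM (1.52). CEACAM5, a cell surface glycoprotein known as the tumor marker CEA, was at 1.49, 8.63 and 25.1 TPM (1.44). MUC20, a membrane mucin, was at 58.1, 26.0 and 64.5 TPM (1.28). LCN2, a secreted iron-carrier-binding protein counted among NF-kB targets, was at 158, 803 and 4016 TPM (2.32). The pancreatic lineage factors GATA6 and SOX9 had differences of -0.48 and -0.36.

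Keratins and squamous genes were split, with 4 of 42 past 2-fold higher, 6 lower and a median of -0.07. SPRR2D, of the cornified envelope, was at the floor in the control, 3.04 TPM after RARγi-1 and 28.7 TPM after RARγi-2 (2.87). KRT6A was at 67.1, 118 and 527 TPM (2.15), and KRT6C, a near-identical copy, had a difference of 1.79. Lower were PADI1, a deiminase of keratinocytes, at 63.3 and 15.8 TPM (-1.94), FGFBP1, which carries fibroblast growth factors, at 219 and 73.3 TPM (-1.56), and the keratin genes KRT14 and KRT17. KRT13, the esophageal keratin that the study follows as a readout of RARγ, was at 3457 TPM in the control, 655 TPM under RARγi-1 and 358 TPM under RARγi-2 (-0.87). Epithelial junction genes had a median of 0.04 and 1 of 29 past 2-fold lower (3.45%, against 4.48% of all entries), CGN, which encodes cingulin (-1.19). Their highest members were OCLN (0.98) and CLDN7 (0.95), tight junction proteins, both past 2-fold after rescaling.

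SRF and YAP targets, and integrins and laminins, had medians below that of all entries. Of 27 SRF and YAP targets, 7 were past 2-fold lower and none higher, with a median of -0.51. CYR61, a matricellular YAP target, was at 222 TPM in the control, 180 TPM in the RARγi-1 library and 41.4 TPM in the RARγi-2 library (-2.09). F3, tissue factor, was at 468, 120 and 27.4 TPM (-2.09), and AJUBA, a LIM protein of cell junctions, at 43.8 and 12.5 TPM (-1.74). The 17 integrins and laminins had a median of -0.62 and 1 member past 2-fold lower (5.88%, against 4.48% of all entries). It was LAMB1, at 57.9 and 17.3 TPM (-1.68), while LAMB3 was at 364 and 441 TPM (0.27). Of 18 genes of the TGF-β and BMP response, 4 were past 2-fold lower (22.2%), with a median of -0.21, close to that of all entries. INHBA, an activin subunit, was at 6.76, 15.6 and 2.96 TPM (-2.07). In this gene RARγi-1 was above the control and RARγi-2 below it.

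Of 20 NF-kB chemokines and cytokines, 3 were past 2-fold lower and 1 higher, with a median of -0.37. IL1B and IL1A, interleukin 1 genes, were at 310.3 and 117 TPM (-1.40) and at 240.3 and 117 TPM (-1.03), and IL1A was within 2-fold after rescaling. ICAM1, an adhesion molecule for leukocytes, was at 9.96 TPM in the control, 15.0 TPM after RARγi-1 and 3.98 TPM after RARγi-2 (-1.68). Of 12 genes of the EGF receptor family none was past 2-fold, with the ligand TGFA lowest (-0.98) and the ligand HBEGF highest (0.51). Of 11 mesenchymal genes 1 was past 2-fold, the transcription factor SNAI2 (-1.23), while VIM, which encodes vimentin, was at 92.1 and 140.0 TPM (0.60).

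Among the retinoid receptors, RARG, RARA and RXRA had lower levels with RARγi-2, by less than 2-fold. RARG was at 51.1 TPM in the control, 37.5 TPM under RARγi-1 and 23.5 TPM under RARγi-2 (-0.65). RARA was at 33.6, 30.5 and 18.7 TPM (-0.68), and RARB was at the floor in all of the libraries. RXRA and RXRB, the dimer partners, had differences of -0.50 and 0.22. CRABP2, which carries retinoic acid to the receptors, was the member of this list of 12 past 2-fold, at 116 TPM in the control, 105 TPM in the RARγi-1 library and 42.0 TPM in the RARγi-2 library (-1.30). FABP5, which carries retinoic acid to another class of receptors, was at 517, 170.3 and 149 TPM (-0.19). The median of the list was -0.35.

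Genes of retinoic acid metabolism and its targets were split, with 2 of 12 past 2-fold higher and 3 lower. TGM2, transglutaminase 2, a classical retinoic acid target, was at 1167 TPM in the control, 188 TPM after RARγi-1 and 70.9 TPM after RARγi-2 (-1.39). ALDH1A3, an enzyme that makes retinoic acid, was at 627, 224 and 102 TPM (-1.14), within 2-fold after rescaling. DHRS3, a reductase that lowers retinaldehyde and is itself retinoic acid-induced, was at 117, 22.8 and 62.3 TPM (1.41), so that the library with RARγi-1 was the lowest. STRA6, the receptor for retinol uptake, was at 4.27, 4.50 and 26.3 TPM (2.31), above the control with RARγi-2 and level with it under RARγi-1. The study takes FABP5 as a target of retinoic acid signaling and considers KRT13 to lie downstream of RARγ. TGM2, FABP5 and KRT13 were highest in the control and lowest with RARγi-2, whereas DHRS3 was lowest with RARγi-1. DHRS3 therefore did not share the order of the inhibitors seen in those targets.

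Lipid genes had medians below that of all entries. Of 22 genes of fatty acid synthesis and lipid droplets, 2 were past 2-fold lower, and the median was -0.36. SCD, which desaturates fatty acids, was at 173 TPM in the control, 91.2 TPM under RARγi-1 and 23.5 TPM under RARγi-2 (-1.91), and FASN, fatty acid synthase, was at 84.2, 36.4 and 14.3 TPM (-1.29). PLIN2, a lipid droplet coat protein, was higher, at 46.1, 443 and 860.4 TPM (0.96). The 25 cholesterol genes had a median of -0.40 with 1 past 2-fold lower (4.0%, against 4.48% of all entries). It was ACAT2 (-1.01), which was within 2-fold after rescaling. Of 33 hypoxia and glycolysis genes 2 were lower (6.06%) and 1 higher (3.03%), against 4.48% and 1.36% of all entries. ANGPTL4, a secreted lipase inhibitor, was lowest at 56.1 TPM in the RARγi-1 library and 11.1 TPM in the RARγi-2 library (-2.24). HIF1A, the hypoxia-induced factor's subunit, was at 252 and 128 TPM (-0.98). Of 9 targets of the aryl hydrocarbon receptor, CYP1B1, a steroid and xenobiotic oxidase, was lower at 19.0 and 5.34 TPM (-1.66), as was UGT1A6, described below.

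Several groups were close to level. None of 35 nuclear respiratory chain subunits (median -0.09) and none of 33 proteasome subunits (median -0.03) was past 2-fold. Of 25 p53 targets 2 were lower, PLK2, a polo-like kinase (-1.23), and FAS, a death receptor (-1.13), with a median of -0.14, close to that of all entries. Of 26 BCL2 family and death receptor genes FAS alone was past 2-fold (3.85% lower, against 4.48% of all entries). BBC3, which encodes PUMA, was at 3.39 TPM in the control, 27.4 TPM after RARγi-1 and 40.5 TPM after RARγi-2 (0.55). ACTB, often used as a reference gene, had a difference of -0.73.

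**Figure D3:**
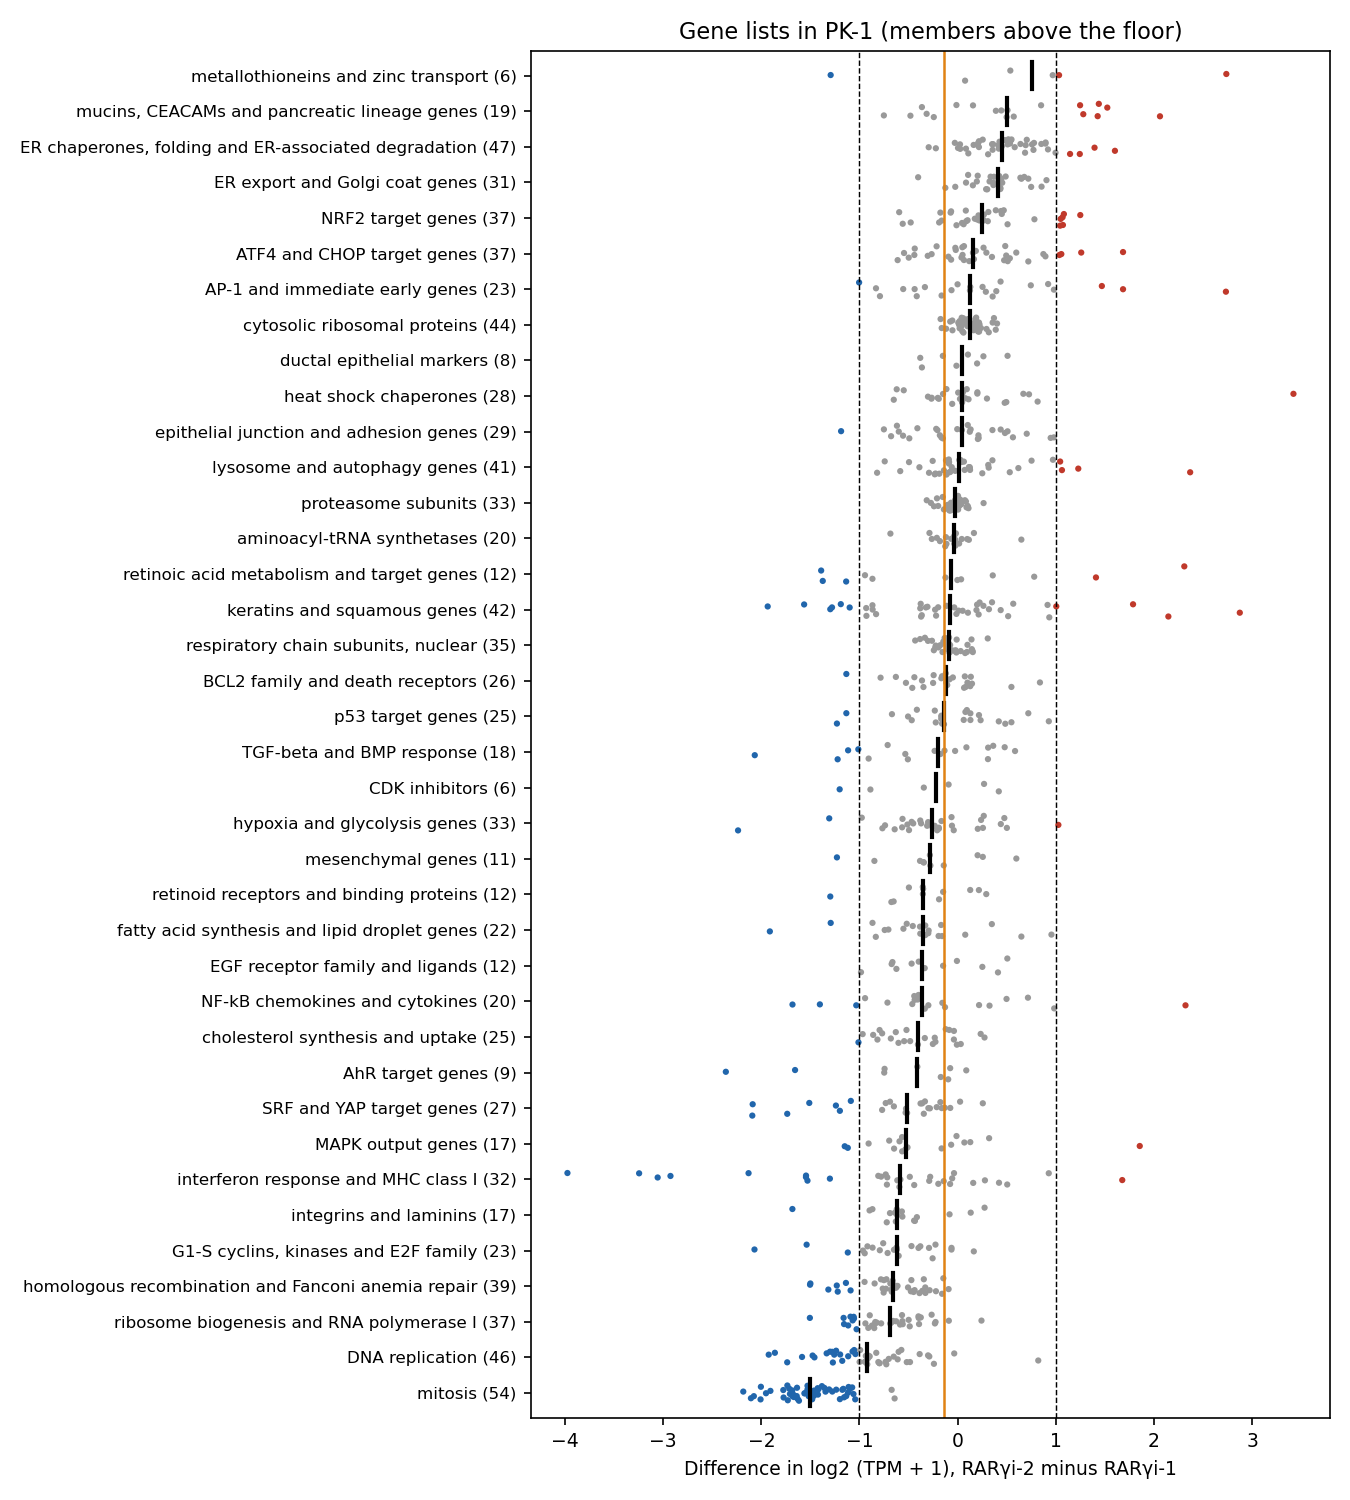
Each point is a gene of the list named at the left (number of members above the floor in brackets), placed by its difference in log2 (TPM + 1), RARγi-2 minus RARγi-1, in PK-1, with black bars at the list medians, the orange line at the median of all entries (-0.14) and dashed lines at 2-fold. Mitosis lies lowest with a median of -1.51 and 52 of 54 genes past 2-fold, and the ER lists lie to the right of the orange line with medians of 0.45 and 0.42.

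Some of the most extreme entries share exons with other entries, and their differences may come from how reads were divided among them. The read-through entry FKBP1A-SDCBP2 had the lowest difference of all, at 191 TPM with RARγi-1 and the floor with RARγi-2 (-6.59), whereas SDCBP2 went from 191 to 663 TPM (1.79). BCL2L2-PABPN1 was at 66.4 and 1.95 TPM (-4.51), while BCL2L2 and PABPN1 had differences of 0.13 and 0.52. RPL36A-HNRNPH2 was lower (-2.34) and RPL36A higher (1.08). CKLF-CMTM1 was higher (3.00) and CKLF lower (-1.44), and BLOC1S1-RDH5 was higher (2.36) and BLOC1S1 lower (-2.04). ZHX1-C8orf76 and TM4SF19-TCTEX1D2 had differences of -2.61 and -2.55 with both partners of each within 2-fold. Read-through entries made up 0.706% of all entries, 1.05% of those higher and 0.955% of those lower. At the UGT1A locus, whose glucuronosyltransferase genes share their last exons, UGT1A6 went from 74.4 to 13.7 TPM (-2.36) and UGT1A10 had a difference of -1.44, while the other 7 of 9 entries were more than 2-fold higher, at 8.17 to 8.51 TPM. The sum over the locus was 145 TPM in the control, 112 TPM under RARγi-1 and 83.1 TPM under RARγi-2, which moved far less than the single entries.

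Of the remaining entries with extreme differences, STRA6 has been described, and several were at or near the floor with RARγi-1. CERS6-AS1, an antisense RNA, was at the floor in the control and with RARγi-1 and at 13.2 TPM with RARγi-2 (2.83 or more). INSL4, a placental insulin-like peptide, was at 1.11, 1.64 and 14.8 TPM (2.58). KPNA7, a nuclear import receptor, was at 3.08, 3.26 and 20.6 TPM (2.34), and PSAPL1, a prosaposin-like protein, at 1.87, 1.32 and 10.1 TPM (2.26). In these 4 entries RARγi-1 was close to the control and RARγi-2 above both.

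Other DNA motifs searched in the same window of 300 bases, on both strands, were present at the following shares, given as a description. CCAAT was in 36.5% of all promoters, 41.5% of those of higher entries and 44.5% of those of lower entries. TTGCATC, a site of ATF4 with C/EBP partners, was in 1.59% of all, 6.92% of higher, among them HERPUD1, and 2.23% of lower entries' promoters. TGACNNNGC, the antioxidant response core, was in 15.5%, 20.0% and 14.5% in the same order, TGCGCNC, the metal response core, in 30.4%, 23.1% and 31.0%, and GCGTG, the core of aryl hydrocarbon receptor sites, in 50.3%, 28.5% and 52.1%.

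The same difference was computed in Panc-1, which shares no library with PK-1. There 100 entries were more than 2-fold higher (0.724%) and 295 lower (2.14%) of 13808, with a median of -0.12. Of the entries past 2-fold in PK-1, 23 were also higher in Panc-1, which is 12% of the PK-1 and 23.0% of the Panc-1 entries, and 64 were also lower, 10.2% and 21.7%. After rescaling by the median ratio the shared entries numbered 42 higher and 44 lower. The differences in the cell lines were correlated over the 9564 entries of at least 5 TPM in at least 1 treated library of each line. Pearson r was 0.555 and the Spearman correlation 0.565 across genes, which are not independent replicates. The entries share gene length and base composition between lines. Of the PK-1 entries past 2-fold that were measured in both lines, 99 of 128 higher ones (77.3%) and 506 of 546 lower ones (92.7%) had the same sign in Panc-1, where 35.7% and 64.3% of all such entries are above and below 0.

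The highest and lowest entries of both lines named here were taken from those of at least 10 TPM in at least 1 treated library of each. Among them, MT1F, HSPA6, KLF2, RHOB and ATF3 had the highest mean differences of both lines. The read-through entry BLOC1S1-RDH5 fell short of that level in PK-1 but had differences of 2.36 (PK-1) and 2.48 (Panc-1). MT1F was at 3.47 TPM in the Panc-1 control, 9.30 TPM in the RARγi-1 library and 96.9 TPM in the RARγi-2 library (3.25). HSPA6 was at 3.18, 6.82 and 35.6 TPM (2.23). Of 27 heat shock chaperones measured in Panc-1, 3 were past 2-fold higher and none lower, with a median of 0.26. HSPA1A and HSPA1B had differences of 1.58 and 1.49 there. KLF2 was at 2.90, 6.09 and 28.1 TPM (2.04). RHOB, a small GTPase of stress fibers and endosomes, was at 64.0, 67.1 and 239.8 TPM in PK-1 (1.82) and had a difference of 1.93 in Panc-1. Lowest in both lines were MIR6723, an entry in a nuclear copy of mitochondrial DNA whose reads cannot be told from mitochondrial RNA (-2.12 in PK-1 against -2.37 in Panc-1), PLAU, the urokinase-type plasminogen activator (-1.78 and -2.28), RAC3, a small GTPase (-2.15 and -1.60), BLOC1S1, which takes part in endosome sorting (-2.04 and -1.65), and ENG, a TGF-β coreceptor (-1.54 and -2.05).

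In Panc-1 the interferon and MHC class I list had a median of -0.22, with none of 27 measured members past 2-fold. IFIT2 was at 5.70 TPM in the Panc-1 control, 10.8 TPM after RARγi-1 and 9.43 TPM after RARγi-2 (-0.18). IFIT3 and IFIT1 had differences of -0.08 and 0.03, and OASL one of 0.37, at 15.5 and 20.3 TPM. Mitosis genes were lower in both lines, with medians of -1.51 (PK-1) and -0.57 (Panc-1), and ER genes higher, by 0.45 and 0.53. Of 54 mitosis genes, however, 2 were past 2-fold lower in Panc-1, against 52 in PK-1. No DNA replication gene was past 2-fold in Panc-1 (median -0.31), nor any gene of ribosome biogenesis and RNA polymerase I. The median of the latter list was -0.11 in Panc-1, near that of all entries (-0.12). RARG had a difference of -1.20 in Panc-1. No Panc-1 library had KRT13, ELF3, CEACAM5 or STRA6 above the floor. Entries past 2-fold higher in PK-1 and lower in Panc-1 numbered 2, B3GNT7, a glycosyltransferase (1.23 and -1.47), and MIR3189 (2.03 and -1.72), named after their values were seen. No entry was past 2-fold the other way round. Whether any difference itself differs between the lines was not tested.

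**Figure D4:**
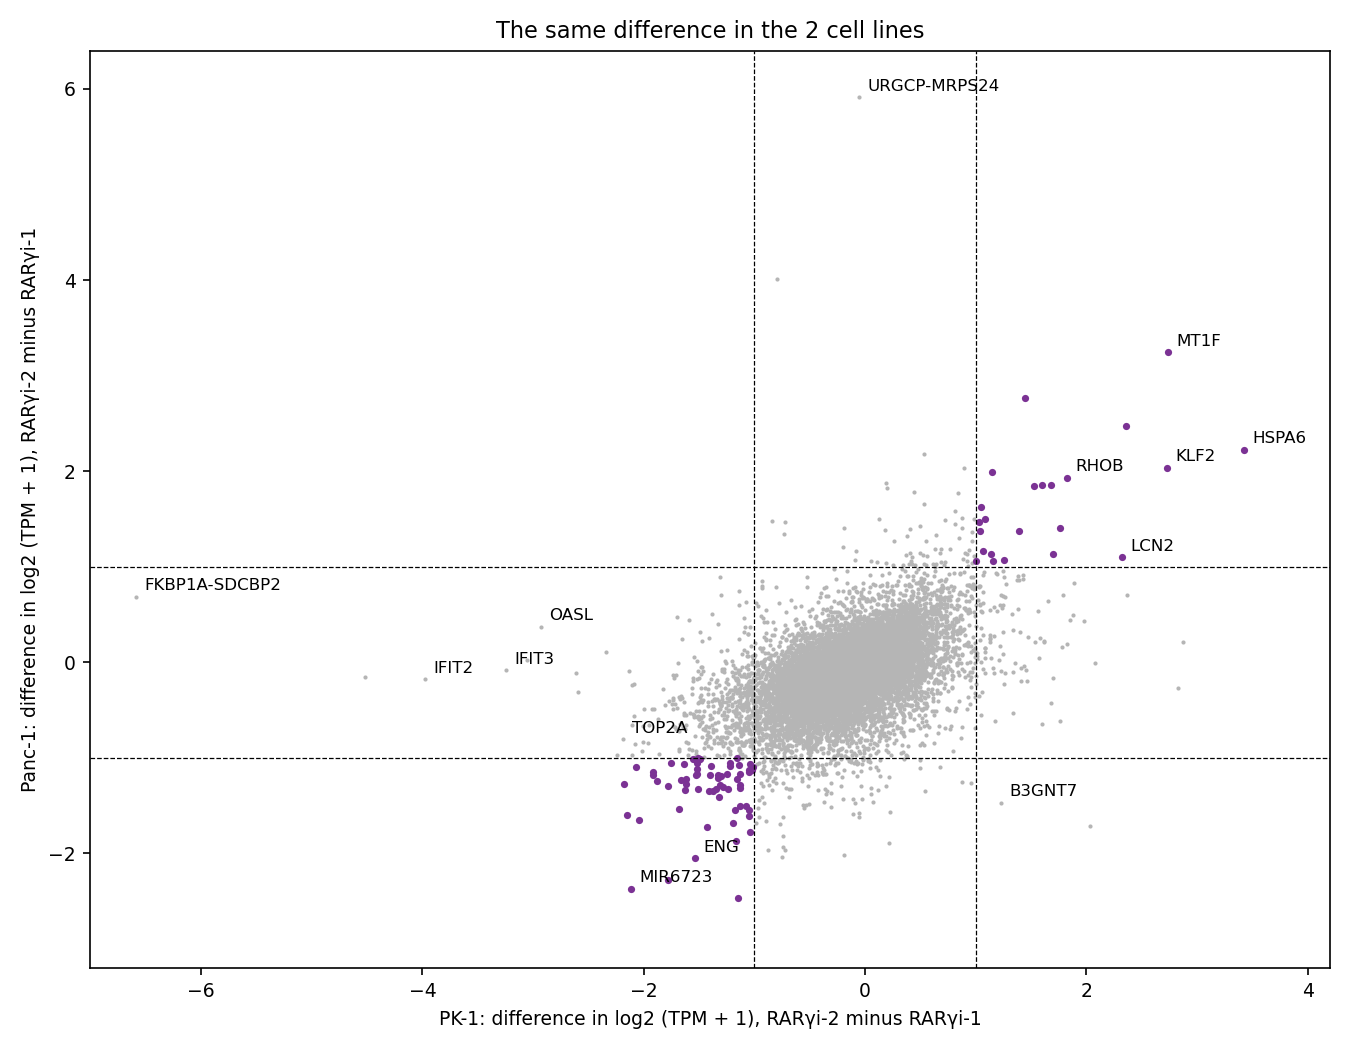
Each point is 1 of 12524 entries measured in both lines, with the difference in log2 (TPM + 1), RARγi-2 minus RARγi-1, in PK-1 on the horizontal and in Panc-1 on the vertical axis, and purple points are the 87 entries past 2-fold (dashed lines) the same way in both. MT1F (2.74 and 3.25) and HSPA6 (3.42 and 2.23) lie at the upper right, and IFIT2 and IFIT3 lie far to the left near 0 in Panc-1, at -0.18 and -0.08, while the read-through entry URGCP-MRPS24 at the top is near 0 in PK-1.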

How the data were processed

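RNA sequencing covered 6 libraries, 1 for each condition of PK-1 and Panc-1, prepared with a stranded mRNA kit. The authors deposited log2 TPM values per Entrez gene, with levels under 1 TPM raised to 1 TPM. The build is hg38 per the submitters' processing notes, and the aligner, counting method and annotation are not given in the sources used here. Depth is unknown, so no interval is given. Values were converted to TPM, and differences in log2 (TPM + 1) were computed with Python 3.11.15 and pandas 2.3.3 and called past 2-fold. The script was tested on simulated data. Named genes were the 12 highest and 12 lowest entries of at least 10 TPM, and the study's readouts. Up to 3 per direction of each list at 5 TPM or more were added. So were the 5 most extreme per direction past 2-fold in both lines, at 10 TPM or more in a treated library of each. The comparison and the 42 gene lists were chosen with earlier results of these data known. The lists overlap and are described by counts and medians. Gene types and promoters came from RefSeq tables of GRCh38.p14, which held 99.5% of the entries; 21 symbols were dates and 38 were duplicated, so entries were followed by Entrez ID. Alternatives were other pseudocounts, a minimum of 5 TPM, rescaling, removal of GC and length trends, a 3-fold threshold and 1 entry per symbol.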

Additional observations from a re-analysis of the deposited data

Results flagged for a closer look

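In 3 gene lists of at least 5 members the median difference between the inhibitors lay on opposite sides of the median of all entries in the cell lines and more than 0.1 away from it in each. The median of all entries was -0.14 for PK-1 and -0.12 for Panc-1. The cholesterol genes had a PK-1 median of -0.40 (25 members) and a Panc-1 median of 0.079 (24 members). The EGF receptor family and its ligands had medians of -0.37 (PK-1, 12 members) and 0.13 (Panc-1, 8 members). The epithelial junction and adhesion genes had medians of 0.043 (PK-1, 29 members) and -0.33 (Panc-1, 17 members). The medians of the 2 lines are thus over partly different genes, since only members above the floor in a line were used. With 1 library per condition, the difference between the lines was not tested, and no single gene of the cholesterol or EGF lists other than ACAT2 was past 2-fold in PK-1.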

How the results depend on the processing

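The number of entries more than 2-fold higher with RARγi-2, 191 as reported, was 322 without a pseudocount, 301 with a pseudocount of 0.1, 298 after rescaling by the median ratio and 51 at a 3-fold threshold. The number more than 2-fold lower, 628 as reported, was 954 without a pseudocount, 101 at the 3-fold threshold and 447 after rescaling. The entries past the threshold the same way in both lines, 87 as reported, numbered 188 without a pseudocount, 173 with the pseudocount of 0.1 and 11 at the 3-fold threshold. Rescaling changed the shared higher entries from 23 to 42 and the shared lower entries from 64 to 44. Under the alternatives run no named gene past 2-fold changed sign. Rescaling moved 7 of 95 such genes within 2-fold (ALDH1A3, CCND1, INCENP, ACAT2, EGR1, IL1A and BMP4) and brought 9 others past it (KDELR3, MT2A, PLIN2, TP53I3, CXCL8, IRF7, OCLN, CLDN7 and PRSS1). A minimum of 5 TPM, the removal of GC and length trends and 1 entry per symbol left each of these counts within 1.5 times of its reported value. The medians of the CDK inhibitors and of the p53 targets changed side of the median of all entries under at least 1 alternative. No paired analysis was possible because each condition has 1 library, and for the same reason none could be left out. Read counts were not used here, so the counting error of low entries is unknown.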

Other observations

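The genes in this section were chosen after their values were seen. Entries that resemble mitochondrial sequence were among the most abundant ones lower with RARγi-2. MIR6723, which lies in a nuclear copy of mitochondrial DNA, was at 52172 TPM in the PK-1 control, 17391 TPM under RARγi-1 and 4013 TPM under RARγi-2. Of 8 MTRNR2L entries, nuclear copies of the mitochondrial 16S ribosomal RNA, 5 were more than 2-fold lower and none higher, with differences from -1.42 to -0.05. The mitochondrial genes RNR2, ND1, COX1, ATP6 and CYTB, 5 of 5 looked at, were at the floor in all 6 libraries, so reads of mitochondrial RNA cannot be told apart from reads of these nuclear copies.

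Small nucleolar RNAs were often lower with RARγi-2, with 29 of 182 entries past 2-fold lower (15.9%) and 3 higher (1.65%), against 4.48% and 1.36% of all entries. The library kit selects messenger RNA, and small RNAs overlap their host genes.

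Other abundant genes past 2-fold higher with RARγi-2 included MMP1, an interstitial collagenase, at 37.7 TPM in the control, 362 TPM in the RARγi-1 library and 1180 TPM in the RARγi-2 library (1.70). IGFBP1, which binds insulin-like growth factors, was at 5.65, 124 and 406 TPM (1.70). Lower ones included CD59, an inhibitor of the complement attack complex, at 146, 154 and 33.2 TPM (-2.18), CD44, the hyaluronan receptor, at 455, 465 and 194 TPM (-1.25), and KRT17, at 487, 1585 and 694 TPM (-1.19).

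Further interferon-related genes outside the list were also lower with RARγi-2 in PK-1. IFNL1, a type III interferon, was at the floor in the control and with RARγi-2 and at 5.30 TPM with RARγi-1 (-1.65 or lower). DDX60, an antiviral helicase, was at 4.35, 16.7 and 3.44 TPM (-1.999), and IFITM1, a membrane protein that restricts virus entry, at 14.1, 19.1 and 5.81 TPM (-1.56). In Panc-1 the difference of IFITM1 was -0.92.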
